A study of Mus musculus with 6 samples.

Results

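The cyclin-dependent kinase (CDK) inhibitors are the gene products that bind and block the kinases of the cell cycle. The genes described here are the 7 rows of the deposited table named Cdkn1a, Cdkn1b, Cdkn1c, Cdkn2a, Cdkn2b, Cdkn2c and Cdkn2d, out of 21878 genes in all. They were measured by RNA-seq in NIH3T3 cells, immortalised fibroblasts grown from mouse embryos, with 3 libraries from cells treated with exosomes from plasma and 3 from cells given PBS (phosphate-buffered saline). Exosomes are small membrane vesicles that cells release. Both groups carried a radiation injury and were sampled at 72 h, so the injury is common to the exosome and the PBS cells, and a group without it was not analysed here. The labels give neither the radiation dose nor the origin of the plasma, nor do they name separate cultures behind the replicates, so the p-values below measure only how far these libraries spread, which may be technical.

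Both families of inhibitors act at the step from G1 into S phase. The Cip/Kip proteins p21 (Cdkn1a), p27 (Cdkn1b) and p57 (Cdkn1c) bind cyclin and kinase together and mainly block CDK2. The Ink4 proteins p16 (Cdkn2a), p15 (Cdkn2b), p18 (Cdkn2c) and p19 (Cdkn2d) bind only CDK4 and CDK6 and keep the D-type cyclins off them. After irradiation p21 is the inhibitor best known for the arrest driven by p53, while p27 is known for quiescence and is controlled largely through breakdown of the protein, which RNA-seq does not see. NIH3T3 cells are known for having lost the locus that encodes p16 and the p53 activator Arf.

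With exosomes, Cdkn1a fell while Cdkn1b and Cdkn2c rose, and Cdkn2d did not pass the test. The remaining 3 genes, Cdkn1c, Cdkn2a and Cdkn2b, were at or near 0 in both groups. Levels are given as FPKM, a read density per unit of transcript length corrected for sequencing depth, which allows levels of different genes to be compared. The test was limma on log2(FPKM + 1) over the 10274 genes that reached 1 FPKM in 3 or more libraries, and a gene was called at an adjusted p under 0.05. Of the 7 genes 4 passed that filter, and of these 2 were called raised and 1 lowered. In the background 43.8% of all tested genes were called, 25.4% raised and 18.4% lowered, so that a call by itself says little about this family and the sizes of the changes carry the description. In the authors' deposited table the same 3 inhibitors were called, against 25.9% of the 15844 genes it gives an adjusted p.

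The fibroblast identity of the cells held in the data, with all 8 fibroblast markers at a mean of 1 FPKM or more and a summed level of 5968 to 6309 FPKM with exosomes and 5062 to 5195 FPKM with PBS. The higher sum with exosomes was not a rise of every marker. By limma 4 of the 8 were raised and 2 lowered, beside 25.4% and 18.4% of all tested genes. The summed level of 8 leukocyte markers was 4.45 to 5.28 FPKM with exosomes and 7.34 to 11.9 FPKM with PBS, with 3 of the 8 at a mean of at least 1 FPKM and Cd3e at 0 in all libraries. The summed platelet markers (5 genes, 2 at a mean of at least 1 FPKM, Gp1ba and Gp9 at 0) were 3.28 to 4.18 FPKM with exosomes and 2.63 to 4.43 FPKM with PBS, and the erythroid, endothelial and keratinocyte sums were at most 1.32 FPKM in any library, with Alas2, Krt5 and Krt1 at 0. The erythroid sum rests on 4 of 6 listed genes, since Hbb-b1 and Hbb-b2 were not analysed here. Depth was worked out from the deposited group means as about 18800000 to 22000000 counted reads per library. The part of the leukocyte difference in the results below was not tested.

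Cdkn1a had 75.9, 74.6 and 75.5 FPKM in the exosome libraries, against 104, 107 and 98 FPKM in the PBS libraries. The 3 exosome libraries were nearly equal and all lay below the lowest PBS library. Such a gap was common, since in 55.6% of tested genes the 3 exosome values lay wholly on one side of the 3 PBS values. The mean was 0.733 of that with PBS, a log2 change of −0.44 ± 0.04 (SE; limma adjusted p = 7.9e-05). In the authors' deposited table, which rests on counts, Cdkn1a averaged 3252 normalized counts with exosomes and 4663 with PBS, a fold of 0.697 with an adjusted p of 8.8e-16. Of its tested neighbours on chromosome 17, Srsf3 had a log2 change of −0.09 (adjusted p = 0.122) and Stk38 was raised (0.22, adjusted p = 0.0173). Cdkn1a was the most abundant of the 7 genes in every library, and by mean FPKM over the 6 libraries it ranked 485 among the 21878 genes of the table. Since these are bulk libraries, fewer cells that express a gene and less of its RNA per cell cannot be told apart, here or for the genes below.

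Cdkn1a has 2 start sites in the RefSeq promoter table (GRCm38.p6), and the gene-level FPKM does not separate them. The 250 bases before each are shown because the first window holds a p53 motif and the second holds GC boxes. In the first window, at chr17:29090729-29090978 on the plus strand, the capitals mark a pair of p53 half-sites end to end with at most 1 mismatch over 20 bases, a form found in 0.0761% of all 32851 windows of this length. This form was added to the search after the windows were seen, so its share is given as description only. In the second window, at chr17:29093519-29093768 on the plus strand, the capitals mark GGGCGG, the GC box bound by Sp1 and related factors, searched on both strands and found in 32.7% of all windows.
Cdkn1a, first start: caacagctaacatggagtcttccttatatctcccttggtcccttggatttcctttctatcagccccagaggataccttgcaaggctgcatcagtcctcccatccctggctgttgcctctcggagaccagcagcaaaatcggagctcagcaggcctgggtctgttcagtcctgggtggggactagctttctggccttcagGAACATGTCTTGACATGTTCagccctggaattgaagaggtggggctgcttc
Cdkn1a, second start: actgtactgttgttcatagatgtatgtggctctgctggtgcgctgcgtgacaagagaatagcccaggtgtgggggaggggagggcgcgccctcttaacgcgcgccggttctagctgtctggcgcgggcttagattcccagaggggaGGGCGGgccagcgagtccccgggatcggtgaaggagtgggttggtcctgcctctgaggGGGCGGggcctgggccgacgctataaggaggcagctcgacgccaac

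Cdkn1b had 56.5, 47.4 and 46.9 FPKM in the exosome libraries, against 35.1, 39.7 and 34.2 FPKM in the PBS libraries. Exosome replicate 1 stood above the other exosome libraries, and even the lowest of these lay above the highest PBS library. The mean was 1.38-fold that with PBS (log2 change 0.45 ± 0.08, limma adjusted p = 0.00196). Without exosome replicate 1 the log2 change was 0.37, the lowest value among the alternatives, and the gene was still called raised (adjusted p = 0.00517). The authors' deposited table gives 2466 normalized counts with exosomes and 1792 with PBS, a fold of 1.38 with an adjusted p of 0.000195. The genes directly beside it on chromosome 6 were below the filter and untested, and both had higher means with exosomes. Gpr19 had 1.02 ± 0.107 FPKM with exosomes and 0.704 ± 0.0746 FPKM with PBS. Apold1 had 0.135 ± 0.0514 FPKM with exosomes and 0.0457 ± 0.0157 FPKM with PBS. The next genes out were tested and did not pass, with log2 changes of −0.08 for Crebl2 (adjusted p = 0.288) and −0.10 for Ddx47 (0.122).

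Cdkn2c changed most. Its levels were 47.9, 43.9 and 47.2 FPKM in the exosome libraries, against 27.7, 26.4 and 24.6 FPKM in the PBS libraries. The gap between the groups was wider than the spread within either of them. The mean was 1.76-fold that with PBS (log2 change 0.80 ± 0.06, 95% interval 0.67 to 0.92, limma adjusted p = 7.89e-06), and by p Cdkn2c ranked 106 among the 10274 tested genes, with Cdkn1a at 290, Cdkn1b at 1415 and Cdkn2d at 9126. In the authors' deposited table the fold was 1.7, on 2024 normalized counts with exosomes and 1190 with PBS, with an adjusted p of 4.48e-25. The tested genes next to it on chromosome 4 did not pass, with log2 changes of −0.08 for Rnf11 (adjusted p = 0.168) and 0.07 for Faf1 (0.249).

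The windows before the starts of the 2 genes that rose are shown for comparison with those of Cdkn1a. That of Cdkn1b lies at chr6:134920151-134920400 on the plus strand, and that of the first Cdkn2c start at chr4:109666757-109667006 on the minus strand. The capitals mark GC boxes (GGGCGG) in both, CCAAT boxes (CCAAT, the NF-Y motif, found in 33.8% of all windows) in Cdkn1b, and 1 E2F motif (TTCCCGC, found in 3.82% of all windows) in Cdkn2c.
Cdkn1b: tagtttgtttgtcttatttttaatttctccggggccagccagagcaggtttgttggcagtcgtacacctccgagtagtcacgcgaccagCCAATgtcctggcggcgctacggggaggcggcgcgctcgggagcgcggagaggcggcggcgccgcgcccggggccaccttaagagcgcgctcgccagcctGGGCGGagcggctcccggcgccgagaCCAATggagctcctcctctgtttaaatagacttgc
Cdkn2c, first start: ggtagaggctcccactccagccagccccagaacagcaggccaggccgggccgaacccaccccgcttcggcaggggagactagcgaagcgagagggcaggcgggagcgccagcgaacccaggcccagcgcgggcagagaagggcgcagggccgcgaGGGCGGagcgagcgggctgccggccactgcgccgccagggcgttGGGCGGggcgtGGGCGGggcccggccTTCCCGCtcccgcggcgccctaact
Cdkn1b held 1 GC box and 2 CCAAT boxes, and Cdkn2c held 3 GC boxes and the E2F motif, whose last base lies 19 bases before the start. The GC content of these windows was 64.4% for Cdkn1b and 77.2% for the first start of Cdkn2c, against 54% and 64.8% for the Cdkn1a starts and a median of 52.4% over all windows. The second start of Cdkn2c, at 42.8% GC, held none of the motifs searched. The single window of Cdkn2d, the gene that did not pass the test, held 3 GC boxes, 1 CCAAT box and 1 single p53 half-site. The other motifs searched were the TATA box (TATAAA), a second form of the E2F motif (TTGGCGC) and the forkhead motif (GTAAACA). The search also covered both forms of the AP-1 motif (TGAGTCA as well as TGACTCA), the E-box (CACGTG) and a motif of the CREB and ATF factors (TGACGTC). None of these stood in the windows of Cdkn1a, Cdkn1b, Cdkn2c or Cdkn2d.

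Cdkn2d had 6.14, 5.51 and 6.64 FPKM in the exosome libraries, against 6.37, 5.87 and 5.49 FPKM in the PBS libraries, and the groups overlapped. The log2 change was 0.04 ± 0.07 (limma adjusted p = 0.702), with a 95% interval of −0.13 to 0.20 that leaves out a change as large as that of Cdkn1b or Cdkn2c. The authors' deposited table gives 120 normalized counts with exosomes and 122 with PBS.

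**Figure D1:**
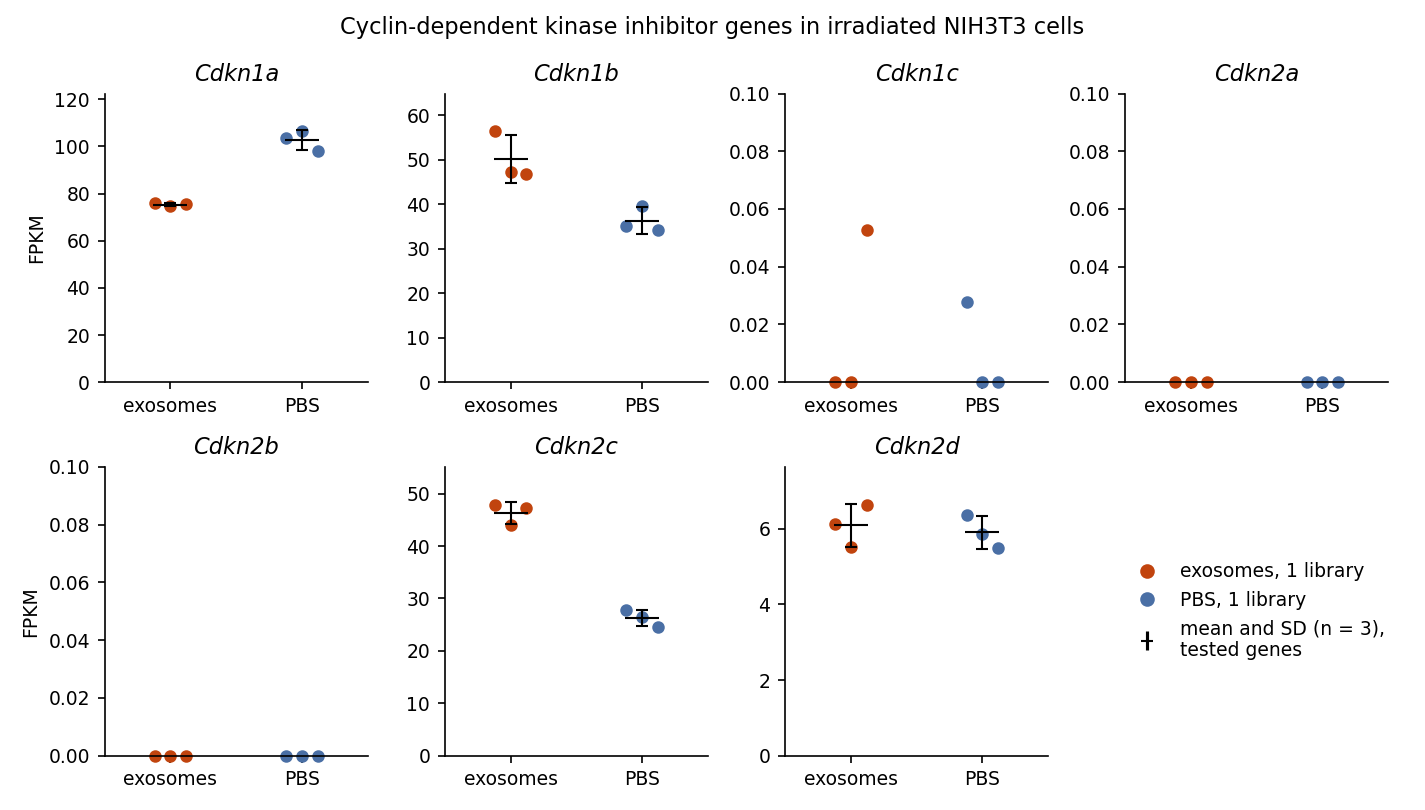
FPKM of the 7 CDK inhibitor genes (vertical axis, a separate linear scale from 0 for each gene) in the exosome and PBS libraries, with each point 1 library and, for the 4 tested genes, a bar at the mean and whiskers of 1 SD (n = 3). Cdkn1a sits at 74.6 to 75.9 FPKM with exosomes and 98 to 107 FPKM with PBS, Cdkn1b and Cdkn2c are higher with exosomes, Cdkn2d overlaps, and Cdkn1c, Cdkn2a and Cdkn2b lie at or near 0.

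Cdkn1c, the imprinted gene of p57, was listed at 0, 0 and 0.0527 FPKM in the exosome libraries and at 0.0277, 0 and 0 FPKM in the PBS libraries. The deposited group means resolve into whole reads at this level and gave 2 reads in exosome replicate 3, 2 reads in PBS replicate 1 and 0 in each of the other 4 libraries. No difference could be measured at that depth. Its nearest neighbours on chromosome 7 in the RefSeq order were nearly silent as well: the means were 0.00392 FPKM with exosomes and 0 with PBS for Kcnq1, 0 with exosomes and 0.0268 FPKM with PBS for Slc22a18, and 0.0204 FPKM with exosomes and 0 with PBS for Phlda2. Trpm5 had 0.119 FPKM with exosomes and 0.0237 FPKM with PBS. Other genes of the region were not silent. Nap1l4 had 19.5 FPKM with exosomes and 20.6 FPKM with PBS, and Cd81 had 229 and 211 FPKM, both named after their values were seen. Of the 11 measured genes listed for this imprinted region 4 passed the filter, with 0 raised and 0 lowered by limma, 0 at an unadjusted p under 0.05 and 0 in the authors' deposited table. Without PBS replicate 2 limma called 2 of them raised. Over all tested genes 43.8% were called, and 4 genes are few to set beside that share. Igf2, the growth factor gene of the neighbouring imprinted domain, had 238, 270 and 305 FPKM with exosomes and 218, 297 and 189 FPKM with PBS, overlapping ranges, and was named after its values were seen.

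Cdkn2a and Cdkn2b were at 0 in all 6 libraries, both in FPKM and in the authors' mean normalized counts. With 3 counts as the limit that a count of 0 allows, either gene could hold at most 0.136 to 0.16 CPM (reads scaled to the library's counted reads) in a library, a limit for counting error only. The Cdkn2a row does not separate the p16 and Arf transcripts. On chromosome 4 the next protein-coding gene on one side, Mtap of the methionine salvage pathway, was abundant, at 105, 111 and 111 FPKM with exosomes and 133, 133 and 117 FPKM with PBS. On the other side Dmrta1 was at 0 in every library, Zfp352 at no more than 0.044 FPKM, and Elavl2, an RNA-binding protein gene further out, at 2.46 to 2.86 FPKM with exosomes and 2.27 to 2.63 FPKM with PBS. Genes at 0 in all libraries were not limited to Cdkn2a, Cdkn2b and Dmrta1: beyond Mtap the interferon genes Ifna4 and Ifna1 were at 0 as well, with Ifne at no more than 0.298 FPKM, and beyond Elavl2 so was Izumo3. Of the 8 genes listed around the locus 3 passed the filter and, where 43.8% of all tested genes were called, 1 of them was called. This was Mtap, which was lowered (log2 change −0.22 ± 0.06, limma adjusted p = 0.0126), a call that ended without exosome replicate 1 (adjusted p = 0.0518) and without PBS replicate 1 (0.0553).

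The make-up of the family differed more between the groups than its total. The summed FPKM of the 7 genes was 186, 171 and 176 in the exosome libraries and 173, 179 and 162 in the PBS libraries, which overlap. Cdkn1a made up 40.7%, 43.5% and 42.8% of that sum with exosomes and 60%, 59.7% and 60.4% with PBS. Cdkn2c made up 25.7%, 25.6% and 26.8% with exosomes and 16%, 14.8% and 15.2% with PBS, and Cdkn1b 30.3%, 27.6% and 26.6% with exosomes and 20.3%, 22.3% and 21.1% with PBS. The Ink4 genes together thus held 28.8% to 30.5% of the sum in the exosome libraries and 18.1% to 19.7% in the PBS libraries, with Cdkn2d at 3.21% to 3.77% of the sum in the exosome libraries and 3.29% to 3.68% in the PBS libraries. By group mean the order of levels was Cdkn1a, Cdkn1b, Cdkn2c and Cdkn2d in both groups. In exosome replicate 3 Cdkn2c (47.2 FPKM) lay just above Cdkn1b (46.9 FPKM). With exosomes the neighbours Cdkn1b (46.9 to 56.5 FPKM) and Cdkn2c (43.9 to 47.9 FPKM) overlapped, while with PBS they did not (34.2 to 39.7 and 24.6 to 27.7 FPKM). Cdkn1b over Cdkn1a was a ratio of 0.667 ± 0.067 with exosomes and 0.353 ± 0.0179 with PBS (SD, n = 3 each), and Cdkn2c over Cdkn1a was 0.615 ± 0.0227 with exosomes and 0.256 ± 0.0102 with PBS. These shares and ratios restate the single-gene changes and were given no test.

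**Figure D2:**
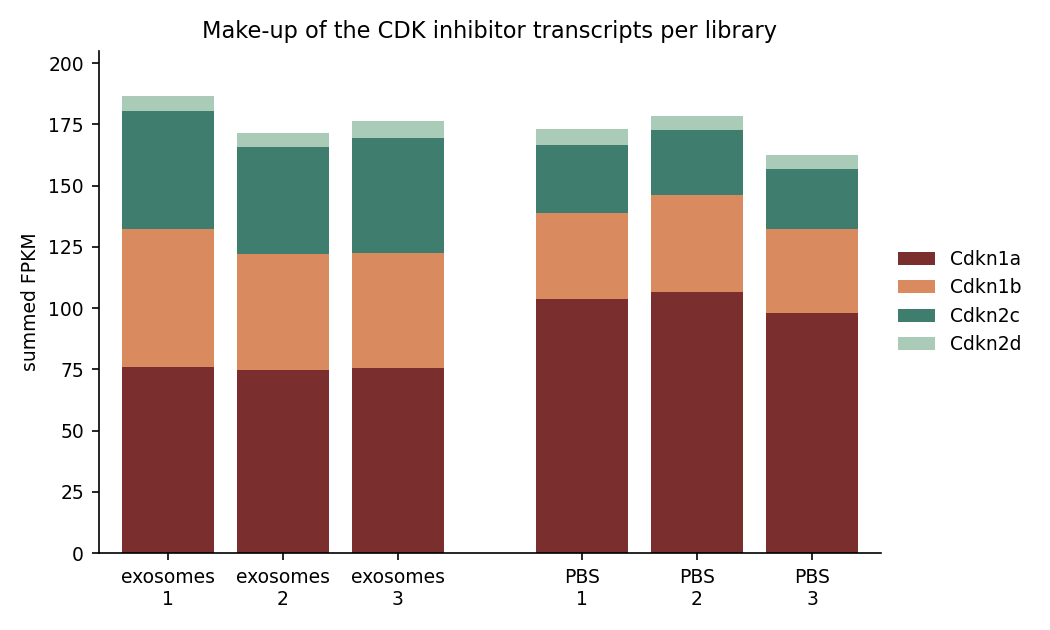
Summed FPKM of the CDK inhibitor genes (vertical axis, linear from 0) in each of the 6 libraries, stacked by gene, with Cdkn1c, Cdkn2a and Cdkn2b too low to draw. The totals are 171 to 186 FPKM with exosomes and 162 to 179 FPKM with PBS, while the Cdkn1a block is smaller and the Cdkn2c block larger in all 3 exosome libraries.

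**Figure D3:**
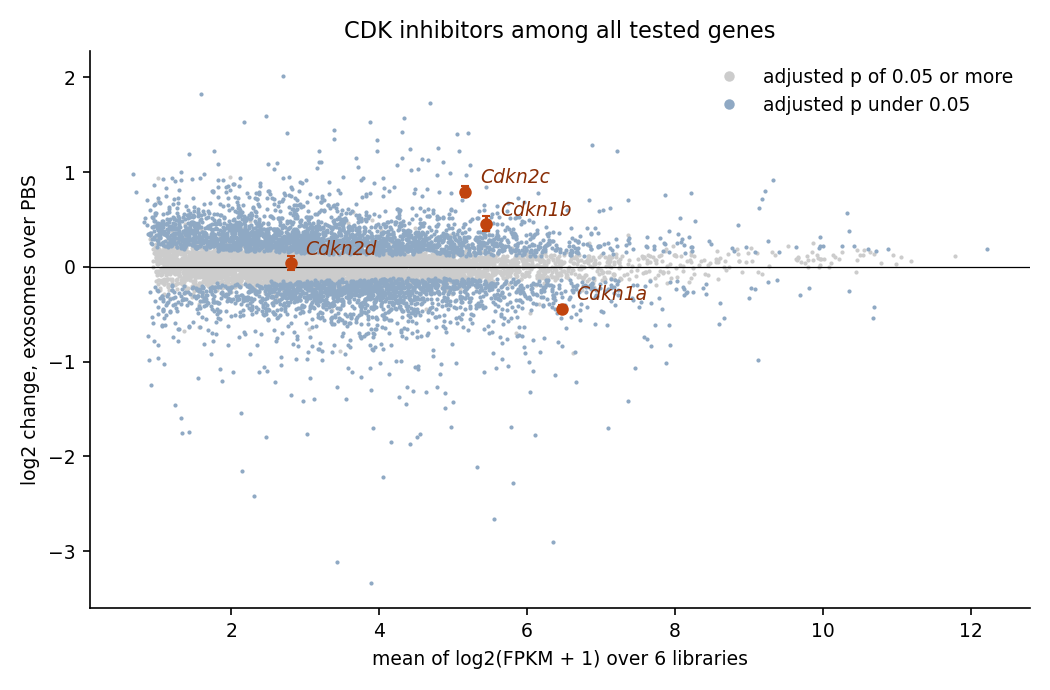
Log2 change of exosomes over PBS (vertical axis) against the mean of log2(FPKM + 1) over the 6 libraries (horizontal axis) for the 10274 tested genes, with the 4 tested CDK inhibitors drawn with whiskers of 1 SE. Cdkn2c (0.80) and Cdkn1b (0.45) lie above the bulk of genes, Cdkn1a (−0.44) below it and Cdkn2d (0.04) within it, while 43.8% of all genes were called.

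The binding partners of the inhibitors mostly had values below 0. Of the 11 genes for CDKs, cyclins and PCNA, all tested, 6 were lowered, 1 was raised and 4 did not pass, with a median log2 change of −0.20 against 0.04 over all tested genes. In the background 18.4% of all tested genes were lowered and 25.4% raised, shares to set beside the counts of every list. Pcna, the polymerase clamp that p21 binds directly, had 45.2, 40.7 and 48.1 FPKM with exosomes, against 71.7, 62.4 and 62.0 FPKM with PBS (log2 change −0.54 ± 0.07, adjusted p = 0.000452). Ccne1, the cyclin E1 partner of CDK2, fell to 6.74 ± 0.215 FPKM with exosomes, against 8.81 ± 0.488 FPKM with PBS (adjusted p = 0.00129), and Ccnd1, cyclin D1, was also lowered (log2 change −0.36 ± 0.07, adjusted p = 0.00252). The gene called raised was Ccnd3, cyclin D3, named after its values were seen, with 54.8, 51.4 and 55.0 FPKM with exosomes and 45.9, 50.3 and 45.8 FPKM with PBS. That call was lost without exosome replicate 1 or 3 and without PBS replicate 1 or 3, and the authors' deposited table calls 0 of the list raised and 7 lowered.

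Neither of the kinases that p18 binds was called raised, and Cdk6 was called lowered (log2 change −0.31 ± 0.06). Chosen after their values were seen, Cdk4 had 260, 253 and 259 FPKM with exosomes and 258, 266 and 252 FPKM with PBS (log2 change −0.01 ± 0.04, 95% interval −0.11 to 0.09), and Cdk6 had 4.44, 4.78 and 4.26 FPKM with exosomes and 5.43, 5.96 and 6.05 FPKM with PBS (adjusted p = 0.00391). Cdkn2c over Cdk4 was a ratio of 0.18 ± 0.00554 with exosomes and 0.101 ± 0.00523 with PBS (SD, n = 3 each). Cdk4 transcripts thus exceeded those of Cdkn2c in every library.

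Downstream of the kinases stand the pocket proteins, which the kinases inactivate, and the E2F factors they hold. Of 13 such genes 11 were tested, with 4 lowered, 1 raised and 6 not past the threshold (median log2 change −0.07). That is 5 of 11 called, where 43.8% of all tested genes were called. The 3 with the smallest p were Tfdp1, the E2F partner DP1, at 41.2 ± 1.02 FPKM with exosomes and 55.2 ± 3.51 FPKM with PBS (adjusted p = 0.000308), and the repressor E2F genes E2f8, at 2.04 ± 0.172 FPKM with exosomes and 3.22 ± 0.0853 FPKM with PBS, and E2f7, at 1.5 ± 0.34 FPKM with exosomes and 2.46 ± 0.168 FPKM with PBS. The fourth was E2f3, an activator E2F (log2 change −0.23 ± 0.06, adjusted p = 0.0112), which like Rbl2 was named after its values were seen. The gene called raised was Rbl2, the pocket protein p130 of quiescent cells, at 7.76, 7.77 and 7.57 FPKM with exosomes and 6.40, 6.42 and 7.07 FPKM with PBS. Its call was lost without exosome replicate 1 or 2 and without PBS replicate 1 or 2, and the authors' deposited table calls 0 raised and 4 lowered.

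The ubiquitin ligases that break down p27, p21 and p57 protein were measured as 13 genes, of which 3 were lowered, 2 raised and 8 did not pass (median log2 change −0.01). With 43.8% of all tested genes called, 5 called of 13 says little about this list. Without PBS replicate 1 only 1 was lowered. Cks1b, the cofactor that lets Skp2 recognise p27, fell to 78.8 ± 2.23 FPKM with exosomes, against 98.7 ± 4.78 FPKM with PBS (log2 change −0.32 ± 0.05, adjusted p = 0.000757), a level that is uncertain because a retrogene copy can share its reads. Ubac1, a subunit of the KPC ligase of p27, and Fbxl12, an F-box protein known for the breakdown of p57, rose by 0.30 and 0.35 on the log2 scale (adjusted p = 0.00459 and 0.00793). Skp2 itself, named after its values were seen, had 7.89, 8.93 and 8.38 FPKM with exosomes, against 10.4, 9.71 and 9.18 FPKM with PBS (adjusted p = 0.0301). The third lowered gene, also named after its values were seen, was Dtl, the receptor that marks p21 for breakdown in S phase (log2 change −0.32 ± 0.08, adjusted p = 0.0128).

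Transcription factors known to activate CDK inhibitor genes went both ways. Of 19 listed 16 were tested, with 5 lowered, 3 raised and 8 not past the threshold (median log2 change −0.06), and the authors' deposited table calls 5 lowered and 3 raised. The 8 of 16 called by limma stand against 43.8% of all tested genes. Lowered with the smallest p were Cebpb, at 79.8 ± 4.67 FPKM with exosomes and 116 ± 8.55 FPKM with PBS (adjusted p = 0.000218), Klf4, a direct activator of Cdkn1a, at 12.8 ± 1.20 FPKM with exosomes and 21.5 ± 2.30 FPKM with PBS (adjusted p = 0.000286), and Ets1 (log2 change −0.44 ± 0.07, adjusted p = 0.00127). Trp53, the gene of p53, was 42.2, 40.9 and 39.2 FPKM with exosomes and 50.2, 48.1 and 46.3 FPKM with PBS (adjusted p = 0.00389). The 3 called raised were Runx1 (log2 change 0.37 ± 0.07) and the forkhead genes Foxo1 (0.39 ± 0.11) and Foxo4 (0.29 ± 0.06), whose proteins are known to activate Cdkn1b. The fifth lowered gene was Klf6 (log2 change −0.22 ± 0.05). The forkhead gene Foxo3, also listed, did not pass, at 15.0 ± 0.351 FPKM with exosomes and 15.6 ± 0.503 FPKM with PBS (log2 change −0.06 ± 0.05, limma adjusted p = 0.364). Trp53, Klf6, Foxo3 and the 3 raised genes were named after their values were seen.

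Among 18 factors known to repress CDK inhibitor genes 14 were tested, with 5 lowered, 4 raised and 5 not past the threshold (median log2 change −0.06). This makes 9 of 14 called, beside 43.8% of all tested genes. The number lowered was 3 on leaving out any one of the exosome replicates, PBS replicate 1 or PBS replicate 3, and the number raised was 2 without exosome replicate 2. Myc, which represses Cdkn1a and Cdkn2b, had 23.6, 23.0 and 22.7 FPKM with exosomes, against 37.1, 32.0 and 35.7 FPKM with PBS (log2 change −0.57 ± 0.06, adjusted p = 7.83e-05). Id1, an inhibitor of helix-loop-helix factors, had 7.66, 6.22 and 6.26 FPKM with exosomes, against 35.7, 29.3 and 40.3 FPKM with PBS (−2.22 ± 0.12, adjusted p = 4.29e-06). Hes1, the Notch-responsive repressor, was at 0.988 ± 0.384 FPKM with exosomes and 3.42 ± 0.138 FPKM with PBS (adjusted p = 0.000103). The remaining lowered genes were Tbx3 (log2 change −0.19 ± 0.07) and Tfap4 (−0.17 ± 0.06). Among those raised were the Polycomb genes Rnf2 (0.26 ± 0.05, adjusted p = 0.00235), Ring1 (0.33 ± 0.07, adjusted p = 0.00444) and Cbx8 (0.21 ± 0.07), of the protein group known for silencing Cdkn2a. These 5 genes were named after their values were seen, and the authors' deposited table calls 2 genes of the list raised and 5 lowered.

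The other genes that p53 activates set Cdkn1a beside its companions. Of 20 listed 18 were tested, with 8 lowered, 1 raised and 9 not past the threshold (median log2 change −0.14), and the authors' deposited table calls the same numbers. Since 43.8% of all tested genes were called, the total of 9 called of 18 says little about p53 targets as a group. By direction 8 of the 18 were lowered and 1 raised, beside 18.4% and 25.4% of all tested genes, and no test was run over the list. The number lowered was 5 without exosome replicate 1, PBS replicate 1 or PBS replicate 2, and the number raised was 2 without exosome replicate 1 and 3 without PBS replicate 2. Plk3, a polo-like kinase gene, had 3.88, 3.55 and 4.00 FPKM with exosomes, against 12.2, 11.5 and 11.9 FPKM with PBS (log2 change −1.42 ± 0.06, adjusted p = 5.37e-07). Aen, an apoptosis-linked nuclease, fell to 17.7 ± 0.829 FPKM with exosomes, against 25.2 ± 0.865 FPKM with PBS (adjusted p = 9.88e-05). The gene called raised was Trp53inp1, a p53-induced nuclear protein gene named after its values were seen (log2 change 0.43 ± 0.09, adjusted p = 0.00491). Mdm2, the ubiquitin ligase of p53, was lowered about as much as Cdkn1a, so that Cdkn1a over Mdm2 was a ratio of 6.67 ± 0.366 with exosomes and 6.81 ± 0.367 with PBS (SD, n = 3 each).

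Genes that carry a related name but belong to neither the Cip/Kip nor the Ink4 family formed a further list. Of 10 such genes 9 were tested, with 1 raised, 0 lowered and 8 not past the threshold by limma (median log2 change 0.02), and 2 raised and 0 lowered at an unadjusted p under 0.05. Over all tested genes 43.8% were called, and 9 genes are few to set beside that share. The authors' deposited table calls 1 raised and 0 lowered. The gene raised was Cdk5rap3, at 13.2 ± 0.83 FPKM with exosomes and 9.86 ± 0.696 FPKM with PBS (adjusted p = 0.00132), and the number raised was 2 without exosome replicate 2 or without PBS replicate 2. Cdkn3, a phosphatase that acts on CDK2 and was named after its values were seen, had 3.16, 2.81 and 3.73 FPKM with exosomes and 2.85, 3.27 and 2.13 FPKM with PBS.

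**Figure D4:**
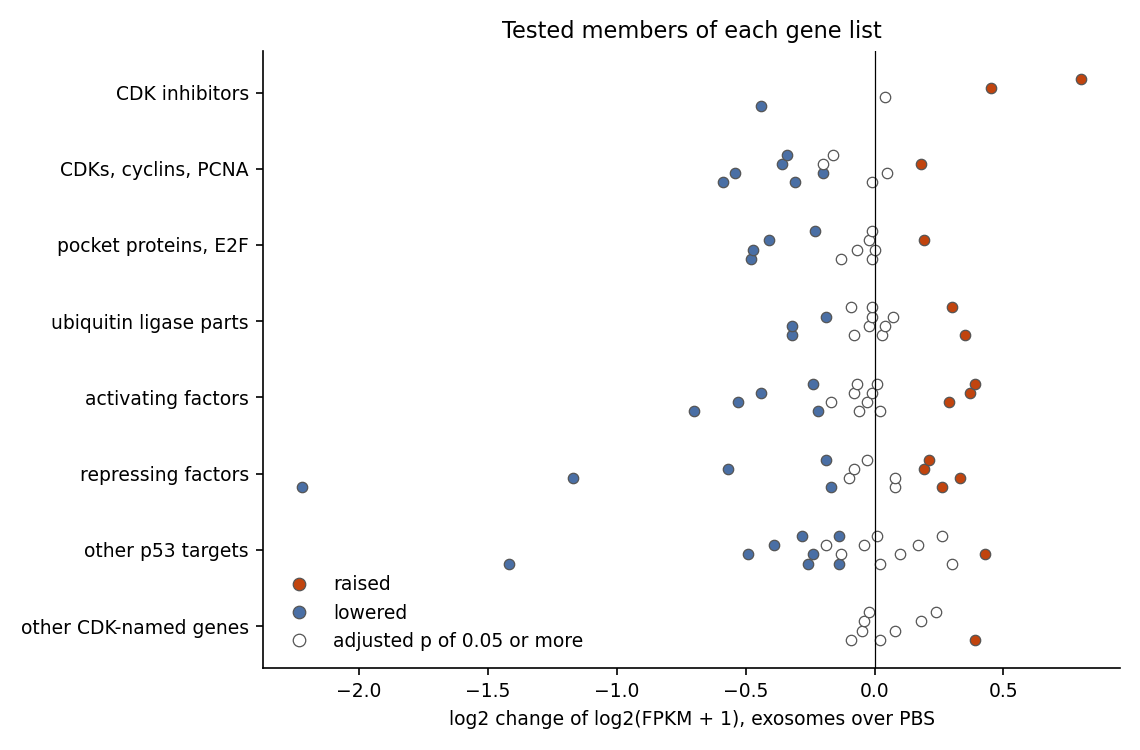
Log2 change of exosomes over PBS on the log2(FPKM + 1) scale (horizontal axis) for the tested genes of each list (rows), with filled points called raised or lowered and open points not past an adjusted p of 0.05. The CDK inhibitors spread from −0.44 to 0.80, while the row of CDKs, cyclins and PCNA has 9 of 11 values below 0 and a single raised gene.

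The genes whose pattern over the 6 libraries was most like that of each tested inhibitor were found by Pearson's r on log2(FPKM + 1) among the other 10273 tested genes. The points share 2 groups of 3 libraries, so a high r reflects mainly the difference between the groups. For Cdkn1a these were Zfp36, an mRNA-destabilising protein gene (r = 0.9995, 12.4 ± 0.57 FPKM with exosomes and 31.2 ± 3.75 FPKM with PBS), the carbonic anhydrase gene Car13 (0.9986) and the forkhead gene Foxc2 (0.9982). For Cdkn1b they were Alg6 of N-glycan assembly (0.9946), Fn3krp, a kinase of glycated proteins (0.9944), and Eid1 (0.9943). For Cdkn2c they were Rcan2, a regulator of calcineurin (0.9986, 5.81 ± 0.283 FPKM with exosomes and 2.99 ± 0.227 FPKM with PBS), Polr2k, a subunit shared by the RNA polymerases (0.997), and Lxn, a carboxypeptidase inhibitor (0.9969). Cdkn2d, whose groups overlapped, reached 0.9838 with Nr1h2, the liver X receptor beta gene, and its next were Prkag2, a subunit of AMP-activated kinase (0.9792), and Tysnd1, a peroxisomal protease (0.9785). An r above 0.99 was reached by 48 genes for Cdkn1a, 12 for Cdkn1b, 76 for Cdkn2c and 0 for Cdkn2d.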

How the data were processed

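RNA-seq of 6 libraries, 3 of exosome-treated and 3 of PBS-treated NIH3T3 cells, was grouped by the sample titles. The mRNA libraries came from a strand-marking TruSeq kit, per the labels. Tools named in the submitters' processing notes, with no roles, are HISAT2 and Bowtie2 (aligners), Trimmomatic, SAMtools, StringTie, Cufflinks, HTSeq and DESeq, with mm9 as build. The use of strand in counting is not given in those sources. In RefSeq's GRCm38.p6 annotation the 4 tested inhibitors overlap no other gene.

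The authors deposited 1 expression value per gene and library, read here as FPKM because the notes name Cufflinks and the column sums differ (the column headers say only expression). Per the file headers the authors also deposited DESeq results: a normalized count signal averaged per group, a linear fold (ratio) of exosomes over PBS, a p-value and an adjusted p-value. Their log2 fold column has spreadsheet error text in some cells and was left aside. Counts per library were not used here. The group means under 3 split into whole multiples of 1 step per library in 100% of 2441 genes for exosomes and 100% of 2362 genes for PBS (tolerance 0.0005 on the summed value), which gave the depths and the read numbers of Cdkn1c. The limit for a count of 0 uses 3 counts per library.

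Genes that reached 1 FPKM in 3 or more libraries were then tested here with limma 3.58.1 (R 4.3.3) on log2(FPKM + 1), with an abundance trend, robust moderation and group as the only term, and p-values were adjusted by Benjamini-Hochberg over all 10274 genes. The pseudocount of 1 understates the change of low genes. Errors are SD for FPKM and SE for log2 changes. The fit was also run on simulated data in which few genes were changed, all of them raised. The real data hold many changes in both directions, so that run is no check on the calls here. Of 27 gene names turned into dates by a spreadsheet 27 were repaired by Entrez identifier. No 2 libraries held identical values.

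The members and gene lists were chosen with earlier results of these data known. Named were the 3 called genes with the smallest p in each list, genes beside the inhibitor loci, and the 3 genes most like each tested member. Exceptions are marked in the text. Promoter windows are RefSeq's (GRCm38.p6), matched by symbol for 6 of the 7 genes, and only the 250 bases before a start were searched. The motif of paired p53 half-sites was added after the windows were seen, and it was searched beside the single p53 half-site, which 7.13% of all windows hold.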

Additional observations from a re-analysis of the deposited data

How the results depend on the processing

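The calls of Cdkn1a, Cdkn1b and Cdkn2c kept their direction and stayed past the threshold in all 14 alternatives run (pseudocounts of 0.1 and 5, no filter or at least 5 FPKM, scaling to equal sums or to the upper quartile, limma without trend and robust moderation, the replicate block, and leaving out each library), with log2 changes of −0.48 to −0.42, 0.37 to 0.52 and 0.72 to 0.83. Cdkn2d passed in none of the 14 (−0.02 to 0.10). Leaving out 1 library gave 2049 to 2621 genes raised and 1403 to 1848 lowered, and 2 inhibitors raised and 1 lowered each time.

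The replicate numbers did not pair the libraries: deviations of same-numbered libraries correlated at −0.12, −0.021 and −0.295, so no library correlated best with its own number. With the replicate block 2288 genes were raised and 1626 lowered, the log2 changes of the inhibitors were the same by construction (Cdkn2c adjusted p = 4.93e-05), and 3 rather than 5 repressing factors were lowered. Of the calls made by limma 58% were raised, against 47.9% in the authors' deposited table. Scaling to equal sums or to the upper quartile moved the median of all genes by less than 0.1.

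Small list counts moved most. At 5 FPKM 2 pocket or E2F genes were lowered, 1 ubiquitin ligase gene was raised and 2 repressing factors were lowered, because fewer genes were tested. Scaling to equal sums left 0 pocket genes raised, upper quartile scaling gave 2 genes of the CDK-named list raised, and limma without trend gave 2 p53 targets raised. The cause of these last 3 was not tested. Leaving out 1 library gave ranges of 0 to 1 raised for the partner list, 0 to 1 raised for the pocket and E2F list, 1 to 3 lowered for the ubiquitin ligase list, 2 to 4 raised and 3 to 5 lowered for the repressing factors, 1 to 3 raised and 5 to 9 lowered for the p53 targets, 0 to 2 raised for the imprinted neighbours, 0 to 1 lowered for the neighbours of Cdkn2a, and 1 to 2 raised for the CDK-named list.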
